A study of Danio rerio with 12 samples.

Results

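PlexinA2 morphants of the zebrafish (Danio rerio) were compared with control embryos by microarray, using the 8 arrays that the labels assign to these conditions, out of 12 in the series. The members were taken by label: the 4 arrays titled Plexin against the 4 titled UIC, over all 5134 rows of the deposited table, each row being 1 Ensembl gene. Another 4 arrays, of sema6A morphants, entered the same fit and were used to ask which changes were found with PlexinA2 knockdown and not with Sema6A knockdown. All embryos carried the rx3:GFP reporter, whose promoter belongs to the eye field gene rx3, and were raised at 25 °C to the stage of 18 somites according to the growth protocol, while the stage label reads 18 hours after fertilisation. The plexinA2 group had been injected at the one-cell stage with an antisense morpholino to PlexinA2, and the sema6A group with one to Semaphorin6A. A morpholino is a synthetic oligonucleotide that blocks translation or splicing of the RNA it pairs with. The control group is labelled wild-type and carried the reporter, and the labels name neither an injection nor a control morpholino for it. Injection of a morpholino and loss of PlexinA2 therefore cannot be told apart in this comparison.

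Plexins are receptors on the cell surface for semaphorins, and the pair guides growing axons and migrating cells by changing the cytoskeleton and adhesion. PlexinA2 is a receptor of the transmembrane ligand Sema6A, and both have been studied in the forming zebrafish eye, where cells of the optic vesicles must stay together as the vesicles grow out of the forebrain. Rows of sema6a and plxna2 themselves were not analysed here, so the knockdown was not checked on its target RNA.

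Total RNA was hybridised to 1-colour (Cy3) arrays. The labels give no dissection, so the values are those of bulk RNA, in which fewer cells of a type and less RNA per cell cannot be told apart. Each array is labelled as a biological replicate. Since the labels do not tie arrays to clutches, the p-values measure the spread between these arrays. The plexinA2 arrays were the most alike, with a median within-group SD over rows of 0.298 on the log2 scale, against 0.423 for sema6A and 0.539 for control arrays. Control replicate 2 stood apart, with a mean rank correlation of 0.835 with the other arrays, and so did sema6A replicate 1, with 0.876, while the remaining 10 arrays lay between 0.907 and 0.932. Array medians were 9.36 to 9.47 in the plexinA2 group and 9.25 to 9.41 in controls on the log2 scale. All values below are log2 intensities or differences of them, each with the standard error (SE) of the limma fit, n = 4 arrays per group and p-values adjusted by the Benjamini-Hochberg method over all rows.

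Called rows were far more often higher than lower in PlexinA2 morphants. At an adjusted p under 0.05, 134 rows rose, or 2.61% of all rows, and 13 fell, or 0.253%, so that 91.2% of the called rows were rises. Rises included targets of the tumour suppressor p53, genes of programmed cell death, the AP-1 transcription factor genes FOS and FOSL1, and genes of antigen presentation and immunity. The largest reached 4.40, while the largest fall was −2.49 and carried no gene symbol. The median rise was 1.59 and the median fall −1.33.

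**Figure D1:**
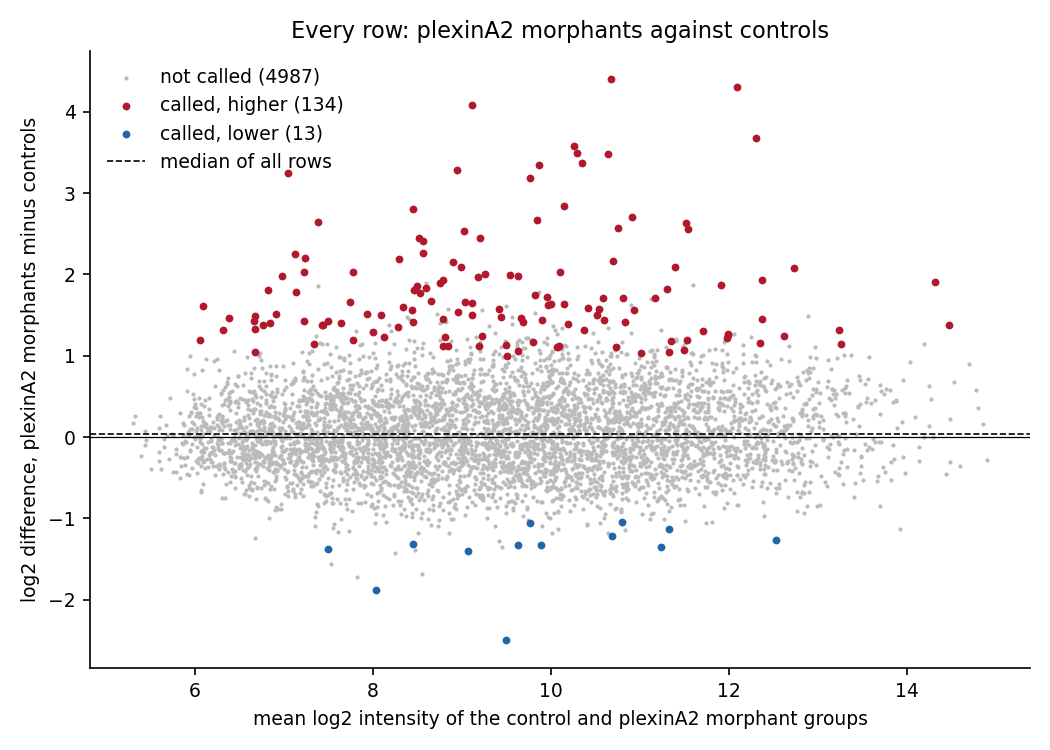
Difference between plexinA2 morphants and controls (y axis, log2) against the mean log2 intensity of both groups (x axis), 1 point per row. The 134 called rises (red) extend to 4.40 and occur at every level, while the 13 called falls (blue) reach −2.49, and the dashed line marks the median of all rows at 0.04.

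The excess of rises grew with the size of the difference. Differences above 1 were found in 284 rows and below −1 in 53, differences beyond 1.5 in 88 rows upward and 5 downward, and differences beyond 2 in 36 rows upward and 1 downward. All 12 differences beyond 3 were rises. The median over all rows was only 0.04, and 53.4% of rows were higher in the morphants. At an unadjusted p under 0.05 there were 593 rows upward (11.6%) and 292 downward (5.69%). In 373 rows (7.27%) all 4 morphant arrays lay above all 4 controls, and in 230 rows (4.48%) all 4 lay below them. This separation held for 129 of the 134 rises and for all 13 falls, which were chosen by p on the same arrays. In 4 equal bins of mean level, from dim to bright, the rises numbered 26, 38, 34 and 36 and the falls 1, 3, 5 and 4.

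Part of the split depended on how the arrays were scaled. The mean of the array medians was 9.43 ± 0.05 (SD, n = 4) in plexinA2 morphants and 9.32 ± 0.07 in controls, a difference of 0.108 with p = 0.0571 in a two-sided exact permutation test, in which 0.0286 is the smallest p possible. Centring each array on its median removes that shift of 0.108 from every difference. The rows above 1 then numbered 211 and those below −1 numbered 92, and 45.5% of all rows were higher, against 53.4% as deposited. It gave 106 rises, all among the 134, and 24 falls, so that 81.5% of calls were rises, and it turned the unadjusted split to 432 rows upward and 440 downward. Quantile normalization gave 224 rows above 1 and 90 below −1, 46.0% of rows higher, 111 rises and 20 falls, with 470 rows upward and 432 downward at an unadjusted p under 0.05. Called rises thus outnumbered called falls under either scaling, while the split at an unadjusted p under 0.05 came close to even. Leaving out control replicate 4 raised the counts to 270 rises and 56 falls, whereas leaving out control replicate 1 or plexinA2 replicate 2, 3 or 4 lowered the rises to 86, 87, 80 or 74.

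The list of p53 targets and growth arrest genes held the most rises. Of 21 measured genes of this list, 10 rose and none fell, or 47.6% against 2.61% of all rows, and 20 of 21 were higher, with a median difference of 1.17 against 0.04 over all rows. The count and the median include EXO5 and RBL2, which had been put on the list with their values known, so their rises lend no support. This list and the others were drawn up with earlier results of these data known, so their shares and medians are descriptive only. The list score, the mean deviation of its members from their means over the 12 arrays, was 0.50 to 0.68 in the plexinA2 arrays and −1.16 to −0.78 in the controls. In sema6A morphants 8 of the 21 genes rose against the same controls, with a median of 0.83.

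PHLDA3 (ENSDARG00000037804), a p53 target that restrains the kinase Akt, read 8.71, 8.60, 8.14 and 8.45 in the control arrays and 12.10, 12.29, 11.71 and 12.10 in the plexinA2 arrays. The groups were separated by more than the range of either. It rose 11.9-fold, by 3.57 ± 0.28 (limma adjusted p = 2.78e-07). The cell cycle inhibitor gene cdkn1a, which encodes p21, rose by 2.53 ± 0.33 (adjusted p = 8.52e-05), and mdm2, whose product degrades p53, rose by 1.91 ± 0.30 (adjusted p = 0.000741). GADD45A, a growth arrest gene induced by DNA damage, read 8.58, 8.56, 8.45 and 7.11 in controls and 11.29, 11.78, 11.03 and 11.31 in morphants, a rise of 3.18 ± 0.36. Control replicate 4 was the low array of that set. The cyclin-dependent kinase inhibitor gene cdkn2a/b rose by 3.28 ± 0.53, the stress gene SESN1 by 2.57 ± 0.37, the kinase gene PLK2 by 1.81 ± 0.37 and CDKN1B, which encodes p27, by 1.32 ± 0.26. RBL2, a relative of the retinoblastoma protein, rose by 3.68 ± 0.30, and EXO5, a DNA exonuclease gene, by 3.48 ± 0.34. Each of these 10 calls was kept in all 12 fits that left out 1 array.

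Of the 11 members of the list that did not pass, PPM1D had the lowest value, −0.22 (adjusted p = 0.781). TP73, a transcription factor gene chosen after its values were seen, rose by 1.23 ± 0.29 (adjusted p = 0.0234), a call that needed control replicate 1 and plexinA2 replicates 1, 3 and 4.

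Among 15 measured genes of apoptosis, 4 rose (26.7%, against 2.61% of all rows) and none fell, with a median of 0.53. In sema6A morphants 5 of these genes rose, with a median of 0.75. The initiator caspase gene casp8 (ENSDARG00000058325) read 8.97, 7.87, 9.18 and 8.18 in controls and 11.61, 12.28, 12.07 and 12.23 in morphants, a rise of 3.50 ± 0.33 (limma adjusted p = 1.72e-06). The BH3-only gene bbc3, which encodes Puma, read 8.14, 9.01, 8.20 and 7.42 in controls and 11.61, 11.48, 11.65 and 11.44 in morphants. Its morphant arrays spanned less than 0.3 while its controls spread widely, and it rose by 3.35 ± 0.35 (adjusted p = 7.38e-06). The BH3-only gene pmaip1, encoding Noxa, rose by 1.89 ± 0.37 (adjusted p = 0.00645). BAX, which permeabilises mitochondria, rose by 1.00 ± 0.26 (adjusted p = 0.0452) and had the smallest difference of all called rises. That call was lost in 9 of the 12 fits leaving out 1 array, the exceptions being control replicate 2, sema6A replicate 1 and plexinA2 replicate 1.

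Of 6 measured immediate early genes, FOS and FOSL1 rose (33.3%, against 2.61% of all rows). FOS, the AP-1 gene induced within minutes of many stimuli, read 7.30, 6.89, 7.70 and 6.30 in controls and 9.89, 9.96, 9.81 and 9.77 in morphants, a rise of 2.81 ± 0.30 (adjusted p = 1.11e-05). FOSL1 rose by 2.03 ± 0.38 (adjusted p = 0.0048). In sema6A morphants FOS rose by 3.05 and FOSL1 by 2.40. The median of the 6 genes was 0.99 there and 0.49 in plexinA2 morphants. No gene passed among 9 of heat shock and the unfolded protein response, where the median was −0.05 and DDIT3 had the highest value, 0.93 (adjusted p = 0.377).

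The remaining large rises were of mixed function. The uncharacterised si:dkey-204l11.1 (ENSDARG00000079403) read 7.80, 9.91, 8.27 and 7.92 in controls and 12.53, 12.88, 12.79 and 13.32 in morphants, a 21.2-fold rise of 4.40 ± 0.39 (adjusted p = 9.34e-07). ATXN1 (ENSDARG00000060862), the ataxin-1 gene, rose 19.8-fold, by 4.30 ± 0.30 (adjusted p = 1.08e-07), while a second row with the same symbol stood at 0.59 (adjusted p = 0.353). The rapunzel family gene rpz5 rose by 3.37 ± 0.51 and rnf169, an E3 ubiquitin ligase gene of the response to DNA breaks, by 2.71 ± 0.32.

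**Figure D2:**
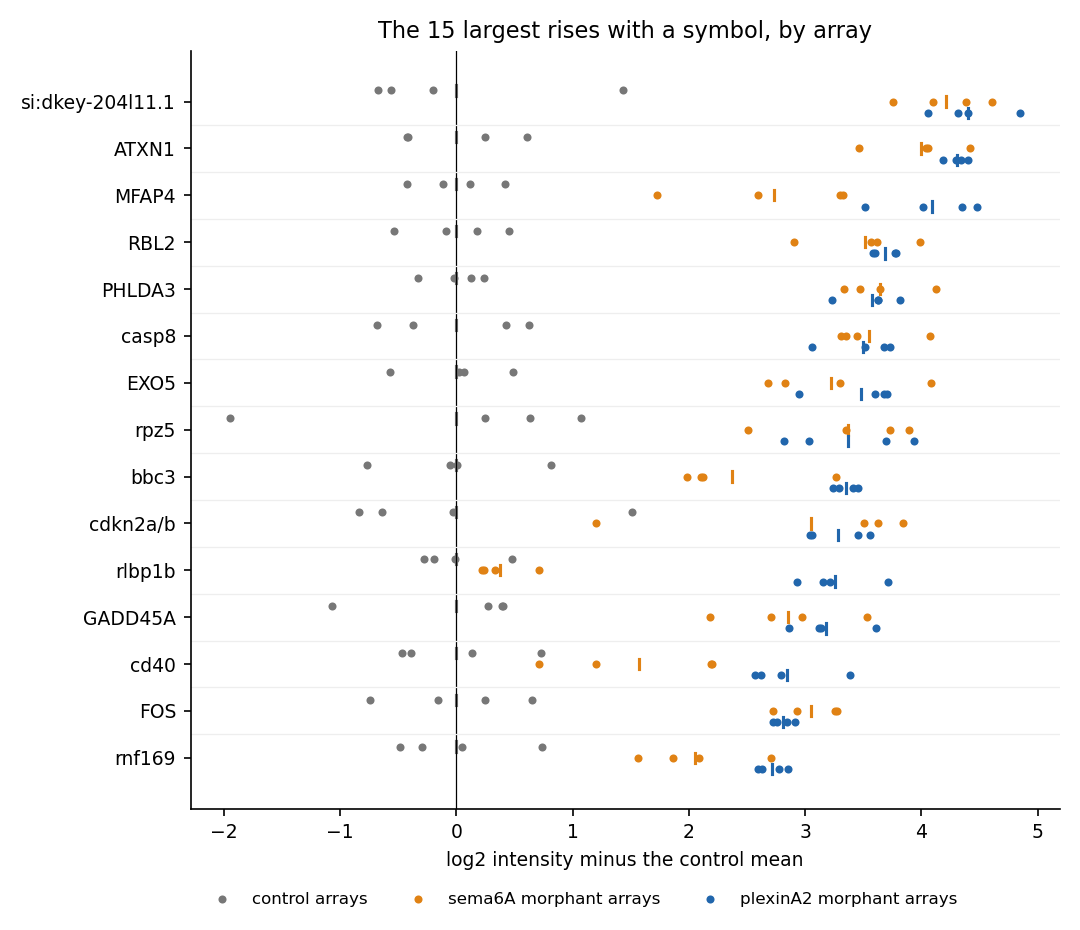
Log2 intensity of each array minus the control mean (x axis) for the 15 largest named rises among those whose control and plexinA2 arrays were separate (y axis), with short bars at group means. The plexinA2 arrays lie to the right of every control array for each gene, and rlbp1b is the gene whose sema6A arrays stay near the controls, at a mean of 0.37.

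Several genes of the immune system rose. MFAP4 (ENSDARG00000090557), which marks macrophages in zebrafish, read 7.18, 6.96, 6.64 and 7.49 in controls and 11.08, 11.54, 10.58 and 11.42 in morphants, a 17.0-fold rise (4.09 ± 0.36, adjusted p = 8.58e-07). In sema6A morphants MFAP4 rose as well, by 2.73 (limma adjusted p = 0.000174). It was the only 1 of 9 macrophage and neutrophil markers to pass. The summed linear intensity of the other 8 was 6395 to 8079 in the plexinA2 arrays and 6029 to 10905 in the controls. Among them the macrophage gene MPEG1 stood at 0.26, the myeloid factor gene SPI1 at 0.11 and the neutrophil lysozyme gene lyz at 0.21. Of all 9 markers 6 were higher and 3 were lower, the lowest at −0.60.

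Of 15 measured interferon and innate immunity genes, 5 rose (33.3%, against 2.61% of all rows) and none fell, with a median of 1.03. These were the leukocyte chemotactic factor gene LECT2 (2.25), the NF-κB inhibitor gene nfkbiaa (1.72 ± 0.28, adjusted p = 0.00106), the antiviral exonuclease gene isg20 (1.45), the matrix protease gene MMP9 (1.39) and gig2p (1.32). The calls of MMP9 and gig2p were both lost without control replicate 1 and without plexinA2 replicate 4, and that of gig2p also without plexinA2 replicate 2. Of 14 genes of antigen presentation 3 rose (21.4%, against 2.61%). The first, b2m, the light chain of MHC class I, rose by 2.41 ± 0.43 (adjusted p = 0.00274). The proteasome activator gene PSME2 rose by 2.03 ± 0.33 and the immunoproteasome gene PSMB8 by 1.52 ± 0.36, the latter with overlapping groups and a call that needed control replicates 1 and 3 and plexinA2 replicates 1, 2 and 4. The receptor gene cd40, which activates antigen-presenting cells, read 8.34, 9.46, 8.26 and 8.86 in controls and 11.30, 11.35, 11.52 and 12.11 in morphants, a rise of 2.84 ± 0.37 (adjusted p = 9.8e-05). The part of immune cell number in these rises was not tested. In sema6A morphants cd40 rose by 1.57 (limma adjusted p = 0.0259) and gig2p by 1.23 (adjusted p = 0.0289). There b2m stood at 1.32, PSME2 at 1.09, nfkbiaa at 0.99, isg20 at 0.89, MMP9 at 0.73, PSMB8 at 0.52 and LECT2 at 0.26, none of them called. The interferon and innate immunity list had a median of 0.61 there, with 1 rise and 2 falls. The antigen presentation list had a median of 0.53, with 1 rise and no fall.

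In the main fit, few of the rises differed between plexinA2 and sema6A morphants in the direct test. In sema6A morphants 102 rows (1.99%) rose and 58 (1.13%) fell against the same control arrays, so that 63.8% of calls were rises. Both comparisons use the same control arrays, so neither supports the other independently. Of the 134 rises with PlexinA2 knockdown, 57 also passed in sema6A morphants and 77 did not. Of those 77, 39 had an unadjusted p under 0.05 in sema6A morphants and 38 did not. Over all 134 the median difference from controls was 1.59 in plexinA2 and 1.04 in sema6A morphants. Of the 13 falls, only ATP1B4 also passed in sema6A morphants, and the medians were −1.33 and −0.36. Rises and falls were both chosen by p in plexinA2 morphants, which favours larger differences there. These medians therefore do not show a stronger response in plexinA2 morphants.

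Compared directly, plexinA2 morphants were higher than sema6A morphants in 65 rows (1.27%) and lower in 23 (0.448%), with 776 and 600 at an unadjusted p under 0.05. Rows called higher than both other groups numbered 10 (0.195%), and rows called lower than both numbered 5 (0.0974%). For the remaining 67 rises and 7 falls that did not pass in sema6A morphants, a difference between the morphants was not shown. For these 15 rows the direct test shows that the morphants differed, and none of them was called in sema6A morphants against controls. In ENSDARG00000032768, however, all 4 sema6A arrays (7.79 to 8.53) lay above all 4 controls (6.81 to 7.44), at a difference of 0.94 (adjusted p = 0.0724). The calls against sema6A morphants were fragile: leaving out 1 array gave between 4 and 293 rows higher, and the low counts came without any single plexinA2 array or without sema6A replicate 2 or 3. The main fit also takes its error from the control arrays, which had the widest spread. Fitting only the morphant groups gave 447 rows higher and 296 lower, and leaving out control replicate 2 gave 293 and 202. The low counts of the main fit thus depend on the arrays fitted. Of the 15, only rlbp1b, casp21, LECT2, SRPRA and the unnamed row ENSDARG00000029135 kept both calls in all 12 such fits.

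Among the 15 rows called against both other groups, the largest difference between the morphants was in rlbp1b (ENSDARG00000045808), which encodes a retinaldehyde-binding protein of the visual cycle. It read 5.41, 5.91, 5.23 and 5.15 in controls, 6.14, 5.75, 5.66 and 5.64 in sema6A morphants and 8.64, 8.58, 9.14 and 8.35 in plexinA2 morphants. The first 2 groups overlapped, at the dim end of the table, and every plexinA2 array lay far above both. The row rose 9.53-fold against controls (3.25 ± 0.28, adjusted p = 8.58e-07) and was higher than in sema6A morphants by 2.88 (adjusted p = 2.62e-05). Its paralogue rlbp1a stood at −0.65 (adjusted p = 0.24), and the other 8 measured genes of the visual cycle and photoreceptors lay between −0.57 and 0.31, none of them called.

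The caspase gene casp21 (ENSDARG00000055550) read 5.80, 6.71, 5.92 and 5.83 in controls, 6.38, 6.68, 7.12 and 6.58 in sema6A morphants and 8.07, 8.75, 8.94 and 9.06 in plexinA2 morphants. It rose by 2.64 ± 0.31 (adjusted p = 3e-05) and was higher than in sema6A morphants by 2.01 (adjusted p = 0.00379). In sema6A morphants casp21 stood 0.63 above controls (limma adjusted p = 0.262), and of the controls only replicate 2 lay within the sema6A range. LECT2 (ENSDARG00000033227) read 5.60, 6.48, 5.91 and 6.03 in controls, 5.87, 6.27, 6.65 and 6.26 in sema6A morphants and 7.87, 8.27, 8.03 and 8.86 in plexinA2 morphants. In both genes the plexinA2 arrays stood above all 8 others. LECT2 rose by 2.25 ± 0.30 (adjusted p = 0.000141) and exceeded sema6A morphants by 1.99 (adjusted p = 0.00379).

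The other 7 rows higher than both groups were called against sema6A morphants by smaller margins. Their differences from sema6A morphants were 1.97 for si:ch211-284o19.8 (adjusted p = 0.0115), 1.94 for 1 of the 2 rows of the muscle gene TTN (adjusted p = 0.0437) and 1.77 for the chitinase family gene chia.6 (adjusted p = 0.0199). They were 1.56 for ENSDARG00000094492, a gene known by a clone name, 1.39 for PAPPA, which encodes a protease of insulin-like growth factor binding proteins, 1.25 for the unnamed ENSDARG00000032768 and 1.24 for the connexin gene gja13.2. Each lost that call in 4 to 7 of the 12 fits leaving out 1 array, and in every case without plexinA2 replicate 1 or 4. In TTN control replicate 4, at 9.88, lay within the plexinA2 range of 9.87 to 10.48, and the other controls read 7.34 to 7.87. The call of that row against controls (1.97 ± 0.47, adjusted p = 0.026) needed control replicates 1 to 3 and every plexinA2 array.

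**Figure D3:**
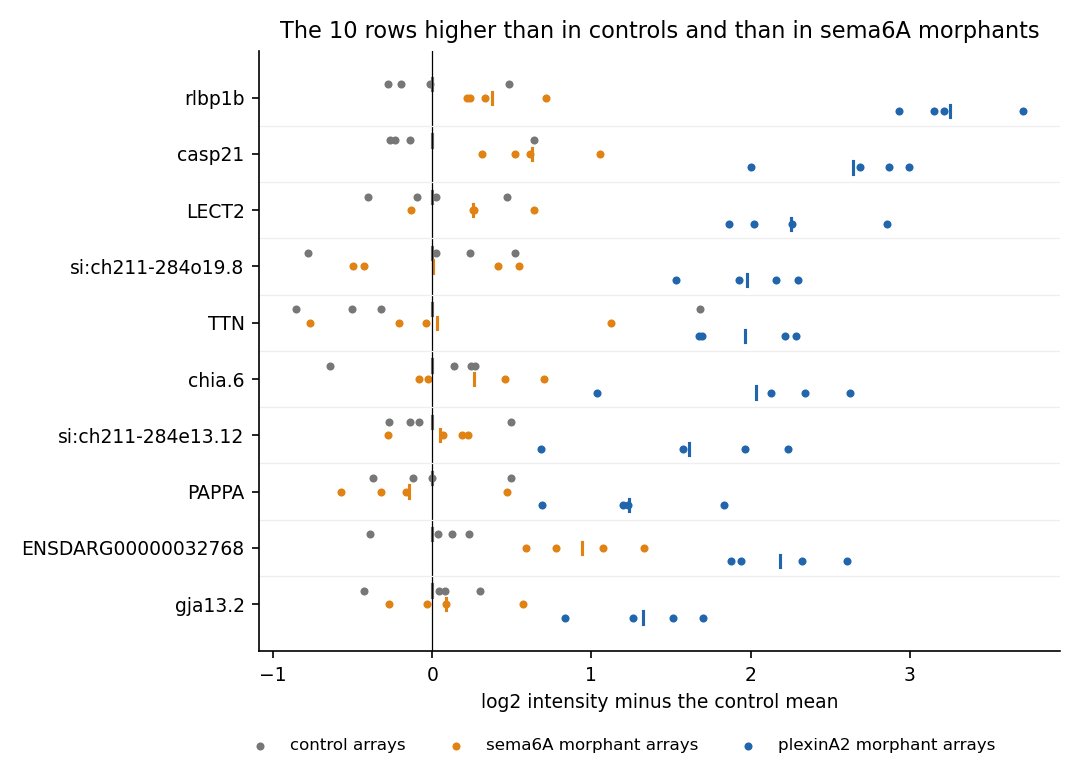
Log2 intensity of each array minus the control mean (x axis) for the 10 rows called higher in plexinA2 morphants than in controls and in sema6A morphants (y axis), with short bars at group means. For rlbp1b, casp21, LECT2 and si:ch211-284o19.8, among others, the plexinA2 arrays stand clear of the other 8, while a control array reaches the plexinA2 arrays of TTN. The rows were chosen for being higher than both groups, so such separation lends no further support.

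The falls were few and of mixed function. ENSDARG00000029135, which has no symbol in the name table, read 11.07, 9.84, 11.30 and 10.77 in controls, 10.84, 10.73, 10.74 and 10.85 in sema6A morphants and 8.27, 8.27, 8.25 and 8.21 in plexinA2 morphants. The plexinA2 arrays spanned less than 0.1 and lay far below all others. The row was 5.62-fold lower than in controls (−2.49 ± 0.30, adjusted p = 4.41e-05) and differed from sema6A morphants by −2.54 (adjusted p = 0.000248).

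SRPRA (ENSDARG00000061124), the receptor subunit that docks ribosomes at the endoplasmic reticulum, read 11.76, 12.13, 11.71 and 12.05 in controls and 10.05, 10.79, 10.59 and 10.80 in plexinA2 morphants, against 11.88 to 12.60 in sema6A morphants. It fell by 1.35 ± 0.28 against controls (adjusted p = 0.00946) and its difference from sema6A morphants was −1.75 (adjusted p = 0.00554). NR0B2 (ENSDARG00000044685), the nuclear receptor SHP that represses bile acid synthesis, read 10.38, 10.69, 10.65 and 10.52 in controls and 8.96, 8.94, 9.50 and 9.52 in plexinA2 morphants. It fell by 1.33 ± 0.27 (adjusted p = 0.0069), and its sema6A arrays, at 10.26 to 10.66, overlapped the controls. The call against sema6A morphants (−1.21, adjusted p = 0.0313) was lost without sema6A replicate 2 or 3 or any plexinA2 array.

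The egg chromatin gene npm2b fell by 1.88 ± 0.39 (adjusted p = 0.0102, lost without plexinA2 replicate 2) and was lower than in sema6A morphants by −2.06 (adjusted p = 0.0199). The cytochrome P450 gene cyp2x7 fell by 1.37 ± 0.30 (adjusted p = 0.0152, a call needing control replicates 1 and 3 and plexinA2 replicates 1 and 3) and was lower than in sema6A morphants by −1.41 (adjusted p = 0.0286). The only fall shared by call with sema6A morphants was ATP1B4, of the sodium pump beta subunit family, at −1.40 ± 0.32 (adjusted p = 0.0196) and −1.44 in sema6A morphants. That call needed plexinA2 replicates 1, 3 and 4.

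The other 7 falls were not called against sema6A morphants. They were TMED1 (−1.33), of cargo transport from the endoplasmic reticulum, krcp (−1.32), MAT2A (−1.26), a synthetase of S-adenosylmethionine, AEBP2 (−1.22), a cofactor of the polycomb complex PRC2, MPND (−1.12), the phospholyase gene ETNPPL (−1.05) and si:dkey-6i22.5 (−1.04). Their adjusted p lay between 0.0249 and 0.0477, and each lost its call in 5 to 9 of the 12 fits, among them those without control replicate 1, control replicate 3, plexinA2 replicate 3 and plexinA2 replicate 4. Only ENSDARG00000029135, SRPRA and NR0B2 of the 13 falls kept their call against controls in every such fit.

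**Figure D4:**
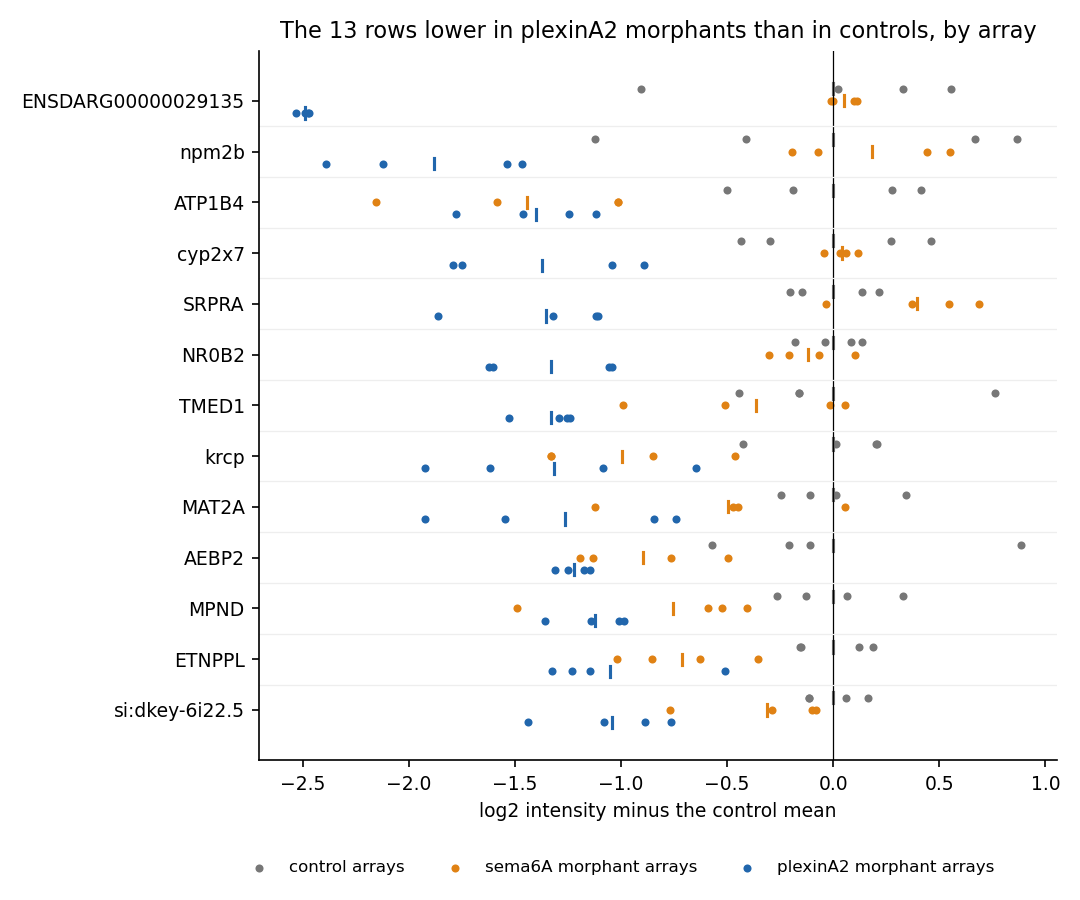
Log2 intensity of each array minus the control mean (x axis) for the 13 rows called lower in plexinA2 morphants than in controls (y axis), with short bars at group means. In ENSDARG00000029135, npm2b, cyp2x7, SRPRA and NR0B2 the sema6A arrays lie with the controls, whereas in ATP1B4 both morphants are low.

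In the pathway of PlexinA2 itself few genes passed. None of 15 measured semaphorin, plexin and neuropilin genes was called, although 13 were higher than in controls and the median was 0.51, or 0.32 without control replicate 3. The list score was 0.16 to 0.62 in the plexinA2 arrays, and control replicates 2 (0.20) and 4 (0.39) lay within that range. The highest were the secreted ligand genes sema3gb (0.93) and sema3ga (0.88, both adjusted p = 0.173) and the receptor gene PLXNA4 (0.70, adjusted p = 0.266). Of 2 rows with the symbol SEMA3F, the brighter stood at 0.62 and the other, not counted in the list, at −0.36, neither called. Among 20 genes of plexin signalling and the cytoskeleton 3 rose, beside 2.61% of all rows. The median was 0.45, but 0.30 without control replicate 2, 0.27 without control replicate 3 and 0.70 without control replicate 4. RASL11B (ENSDARG00000015611), a small GTPase gene, rose by 1.58 ± 0.30 (adjusted p = 0.00525), and SHTN1, whose protein links actin to adhesion in growing axons, by 1.12 ± 0.27 (adjusted p = 0.024). Both had been named with their results known and also passed in sema6A morphants, at 2.18 and 1.21. The tyrosine kinase gene ABL2, which acts on actin, rose by 1.14 ± 0.27 (adjusted p = 0.0234). The calls of SHTN1 and ABL2 were lost without control replicate 1 or any plexinA2 array, and that of ABL2 also without control replicate 3. Of 21 other axon guidance genes, with a median of 0.55, the adhesion gene NFASC (1.11, adjusted p = 0.0348) and the ephrin receptor gene epha2b (1.16, adjusted p = 0.0452) rose (9.52% of the list), with calls that were lost in 8 and 10 of the 12 fits, among them those without control replicate 1 or 3 or any plexinA2 array.

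Of the eye field and optic vesicle, none of 15 genes passed. The median was 0.12, or 0.02 after median centring, and the list score was 0.10 to 0.38 in plexinA2 arrays, 0.05 to 0.15 in controls and −0.37 to −0.28 in sema6A arrays. The eye field gene rx3 stood at 0.61 (adjusted p = 0.652), LHX2 at 0.21, SIX3 at 0.01, PAX6 at 0.35 and foxd1, of the nasal retina, at −0.94 (adjusted p = 0.21). None of 18 genes of the lens, ear and placodes passed, with a median of −0.01 that fell to −0.11 after median centring.

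Muscle and matrix genes had positive medians with few calls. Of 38 muscle genes 35 were higher and 2 rose (5.26%, against 2.61% of all rows), nebl (1.79 ± 0.41, a call needing control replicate 1 and plexinA2 replicates 2, 3 and 4) and TTN, whose second row rose as well (1.67 ± 0.39, a call needing control replicates 1 and 3 and every plexinA2 array). The median was 0.55. The muscle list score was 0.65, 0.68, 0.64 and 0.58 in the plexinA2 arrays and −0.32, −0.34 and −0.30 in control replicates 1 to 3, but 0.87 in control replicate 4, above every morphant array. Of 39 collagen and matrix genes 33 were higher and 2 rose (5.13%), the gelatinase gene MMP2 (1.31 ± 0.26, adjusted p = 0.0069) and COL12A1 (1.58 ± 0.38, adjusted p = 0.0244, a call needing control replicates 1 and 3 and every plexinA2 array). The median was 0.42, and control replicate 4 again had the highest score, 0.81 against 0.36 to 0.58 in plexinA2 arrays. Without control replicate 4 the medians were 0.84 for muscle and 0.71 for matrix, and without control replicate 3 that of matrix was 0.22. In sema6A morphants the medians of these lists were −0.64 and −0.37, or −0.33 and −0.23 without sema6A replicate 1. Even so, nebl rose there by 2.00 (limma adjusted p = 0.0101). MMP2 averaged 13.91 in sema6A morphants, 13.89 in plexinA2 morphants and 12.58 in controls. The rows of TTN stood at 0.03 and 0.18 in sema6A morphants and COL12A1 at 0.23, none of them called.

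Markers of other tissues gave no rise. Among 14 erythroid genes none passed and the median was −0.07, against −1.49 in sema6A morphants, or −1.05 there without sema6A replicate 1. Without control replicate 4 the median in plexinA2 morphants was 0.33. The erythroid list score was 1.13 in control replicate 4, 0.13 to 0.18 in the other controls and 0.28 to 0.42 in plexinA2 arrays. None passed among 10 endothelial genes (median 0.32), 11 notochord genes (0.43), 12 of neural crest and pigment (−0.03) and 10 of epidermis and hatching gland (0.15, or 0.04 after median centring). Among 14 germ line and maternal genes 12 were lower and npm2b alone fell. Of 22 Notch and neurogenesis genes only the Notch ligand gene jag2a rose (1.56 ± 0.35, adjusted p = 0.0168, a call needing control replicates 1 and 3 and plexinA2 replicates 1, 3 and 4), and the median was −0.20. None of 28 genes of somite segmentation and mesoderm passed (median −0.20). Leaving out 1 array could turn the sign of the medians of the lists for heat shock, erythroid, neural crest, epidermis, visual cycle, DNA repair, ubiquitin, secretory, one-carbon and lens genes, all of them small.

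Genes of proliferation and of mitochondria lay lower as groups, without a call. Of 38 cell cycle and replication genes 29 were lower, with a median of −0.37, or −0.61 without control replicate 2 and −0.24 without control replicate 1, and the replication licensing gene CDC6 had the lowest value, −1.14 (adjusted p = 0.0913). The list score was −0.40 to 0.13 in plexinA2 arrays and 0.33 to 0.52 in control replicates 1, 3 and 4, but −0.55 in control replicate 2. Of 34 genes of the respiratory chain and the mitochondrial ribosome 31 were lower, with a median of −0.38, or −0.23 without control replicate 2 and −0.25 without plexinA2 replicate 3. The score of this list was −0.50 to 0.04 in plexinA2 arrays. Control replicates 1, 3 and 4 lay within that range, at −0.13, −0.06 and −0.03, and control replicate 2 stood at 0.78. Among 19 DNA repair genes 3 rose (15.8%, against 2.61% of all rows), and the same 3 rose in sema6A morphants. They were EXO5, listed with its value known, the ADP-ribose polymerase gene PARP3 (1.77 ± 0.30) and REV1 (1.41 ± 0.30). REV1 serves DNA synthesis past lesions, and its call needed plexinA2 replicates 2, 3 and 4. Of 9 genes of oxidative stress and detoxification, cyp2x7 and NR0B2 fell and 8 were lower, with a median of −0.82, and the superoxide dismutase gene SOD1 stood at −1.08 (adjusted p = 0.0788). None of 16 ubiquitin and proteasome genes passed (median −0.20), and 2 of 14 secretory genes (SRPRA and TMED1) and 1 of 9 yolk and liver genes (NR0B2) fell. Over all rows 0.253% fell, and NR0B2 was counted in both the detoxification list and the yolk and liver list.

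**Figure D5:**
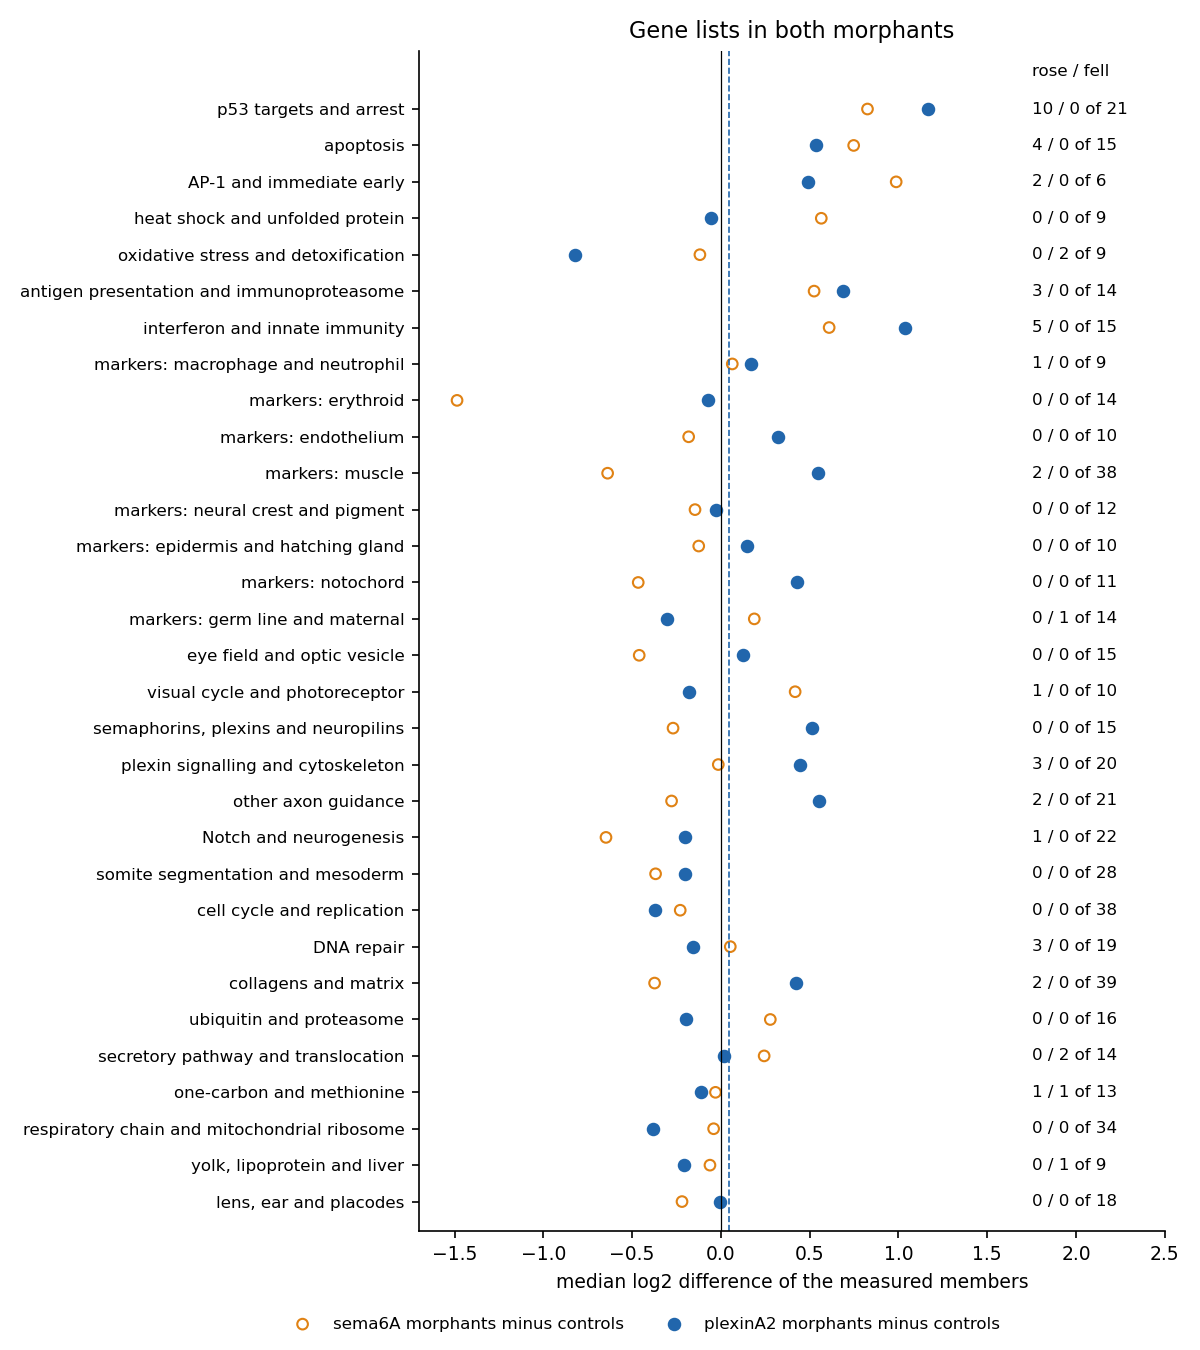
Median log2 difference from controls (x axis) of the measured members of 31 gene lists (y axis) in plexinA2 (filled) and sema6A morphants (open), which share their control arrays, with the numbers of members that rose or fell in plexinA2 morphants at the right. The dashed line is the median of all rows in plexinA2 morphants, 0.04, and the highest plexinA2 median is that of the p53 list, 1.17.

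The difference also moved with gene length. A genomic span, introns included, was found in RefSeq (assembly GRCz12tu) for 3802 of 4349 rows with a symbol. From the shortest to the longest of 5 equal bins of these rows, the median difference from controls was −0.15, −0.10, −0.02, 0.11 and 0.31, and the percentage of rows higher rose from 36.8 to 71.2. The median of the longest bin relative to the shortest lay between 0.13 and 0.52 in the plexinA2 arrays and between −0.41 and −0.31 in control replicates 1 to 3, but at 0.38 in control replicate 4. The called rises did not follow that order, with 30, 20, 16, 16 and 21 per bin and a median span of 14.1 kb against 18.5 kb for all rows. The called falls numbered 4, 5, 2, 0 and 1. At an unadjusted p under 0.05, rows upward numbered 65, 61, 57, 93 and 136 from the shortest bin to the longest, and rows downward 77, 71, 39, 34 and 22. The excess of rises at that threshold thus lay mainly in the bins of long genes. When each array was centred within each bin, 92 rises and 19 falls were called among these 3802 rows, against 106 and 12 without that step. Centring each array on its median over these rows, without bins, gave 87 rises and 23 falls. On the same rows centring within bins moved the counts against sema6A morphants from 27 to 56 higher and from 11 to 28 lower. Median centring without bins gave 23 and 11 there. Over members with a span, centring within bins moved the median of the p53 list from 1.17 to 1.28, of muscle from 0.49 to 0.38 and of matrix from 0.42 to 0.16. Plexin signalling moved from 0.45 to 0.14, with 1 rise among its 18 such genes. Other axon guidance moved from 0.39 to 0.21, with no rise among its 17. The cell cycle list moved from −0.38 to −0.51 and the mitochondrial list from −0.40 to −0.28. Only 9 of the 15 semaphorin, plexin and neuropilin genes had a span, and their median moved from 0.58 to 0.23. Whether gene length or a property tied to it produced these differences was not tested.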

How the data were processed

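The authors deposited 1 table of 1-colour NimbleGen intensity values on a linear scale (26.3 to 42222), made with RMA, a method of background correction, normalization between arrays and probe summary, per the submitters' processing notes, which give no version. RMA compresses differences of dim probes and fixes the overall level of each array. The table used here has 5134 rows, and how they were selected is not stated. Array medians over these rows still ran from 9.25 to 9.47. Whether the choice of rows or the scaling of the arrays produced that was not tested. Precision is limited by there being 4 arrays a group. After log2 transformation, with no pseudocount, limma 3.58.1 (lmFit, eBayes; R 4.3.3) was run on all 12 arrays with group as the only term. Tests were two-sided with Benjamini-Hochberg adjustment over all rows, called under 0.05, and the fit was tested on simulated data. Of 50 simulated rows changed by −1 and 50 changed by 1, 13 and 15 were called. At −2 and 2, 45 and 47 of 50 were called, and 10 unchanged rows were called falsely. A row that did not pass may therefore still have changed. The main comparison was plexinA2 against control arrays, and sema6A arrays served the direct test between morphants.

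Symbols came from a gene name table (4349 rows), in which upper-case symbols do not tell duplicated zebrafish genes apart. The 31 lists held 1860 names, of which 1731 matched that table, and 513 rows were measured. Members, lists and tests were chosen with earlier results of these data known. Named were the 15 largest separated rises, every fall, rows called against both other groups, up to 12 called rows of least change in sema6A morphants, up to 4 genes per list, RASL11B and SHTN1. Others are said to be chosen afterwards or are given as members of a list. Replicate numbers were checked for pairing by correlating deviations from group means. Alternatives covered the replicate block, groups fitted, dim rows, normalization, centring, pseudocount, variance model, array weights, call threshold and leaving out arrays, and gene span was added after the data were seen. Some results are not reported here.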

Additional observations from a re-analysis of the deposited data

Results flagged for a closer look

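In 177 groups of 4 arrays (57 named and called rows in each of 3 groups, and 2 array measures), 15 held an array whose gap to the nearest of the others exceeded Dixon's critical share of the group's range. Chance flags about 1 in 20 groups. In controls these were GADD45A in replicate 4 (low, 7.105), casp21 in replicate 2 (high, 6.7058), chia.6 in replicate 4 (low, 6.1179), FOSL1 in replicate 2 (high, 9.6024) and COL12A1 in replicate 4 (high, 10.953). In plexinA2 morphants they were EXO5 (11.8434), nebl (7.5737) and REV1 (10.9781), all low in replicate 1, and TTN (ENSDARG00000028213), high in replicate 3 (9.9598). In sema6A morphants they were bbc3 (11.4614), TTN (8.8854) and epha2b (12.953), all high in replicate 1, MPND, low in replicate 1 (10.4019), and cdkn2a/b (8.5133) and mat2al (12.523), both low in replicate 4.

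The difference from controls was itself different between the morphants, by limma's direct test, in 13 named rows. The plexinA2 minus sema6A difference was 2.8786 for rlbp1b, 2.0141 for casp21, 1.9945 for LECT2, 1.9718 for si:ch211-284o19.8, 1.9396 for TTN (ENSDARG00000000563) and 1.7697 for chia.6. It was 1.5641 for ENSDARG00000094492, 1.3851 for PAPPA, 1.2389 for gja13.2, −1.2134 for NR0B2, −1.4119 for cyp2x7, −1.7458 for SRPRA and −2.0612 for npm2b.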

How the results depend on the processing

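All counts are of rows called by limma at an adjusted p under 0.05. Leaving out 1 array gave 74 to 270 rows higher than controls, 4 to 56 lower, 4 to 293 higher than sema6A morphants, 2 to 202 lower, 3 to 62 higher than both groups and 2 to 9 lower than both. Leaving out control replicate 4 gave the highest counts against controls and against both groups, and leaving out control replicate 2 the highest against sema6A morphants. Array weights, which gave control replicate 2 a weight of 0.158, control replicate 4 of 0.326 and sema6A replicate 1 of 0.308, raised the same 6 counts to 1013, 616, 1132, 1141, 456 and 268. Without control replicate 2 and sema6A replicate 1, chosen after seeing the data, they were 219, 56, 458, 422, 54 and 24. Fits of only the groups compared gave 447 higher and 296 lower than sema6A morphants. With the replicate block 8 rows were lower than controls, and 108 were higher and 36 lower than sema6A morphants. Same-numbered plexinA2 and control arrays correlated at −0.06, −0.24, 0.03 and 0.09, so the numbers were not taken as pairs, and replicates 1 to 3 correlated better with another number. Rows lower than controls numbered 20 with quantile normalization, 24 with median centring and 21 with a pseudocount of 50, and rows lower than sema6A morphants 68, 65 and 52. With the dimmest 25 percent of rows left out, 3 rows were higher than both groups. Centring within 5 bins of gene span, also added after seeing the data, changed the counts over the same 3802 rows from 106 to 92 higher and 12 to 19 lower than controls, and from 27 to 56 higher and 11 to 28 lower than sema6A morphants. Median centring of these rows without bins gave 87 higher and 23 lower than controls, and 23 higher and 11 lower than sema6A morphants. The difference of array medians kept its sign in each of 10 recomputations (0.0833 to 0.1364, exact permutation p = 0.0571 to 0.114). Over 3034 recomputed values of named genes none of those called changed sign, 189 lost their call and 81 gained one. Of 465 recomputed list medians 30 moved by more than the SD of the control scores.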

Other observations

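The rises included 4 genes known from cilia or microtubules, picked after their values were seen, and other genes of cilia were not counted. The transcription factor gene foxj1b, which drives the making of motile cilia, read 9.81, 9.49, 9.51 and 8.53 in controls and 11.35, 10.86, 10.72 and 10.93 in plexinA2 morphants, a rise of 1.63 ± 0.31 (limma adjusted p = 0.00502). The axonemal dynein genes DNAH2 (2.82-fold, adjusted p = 0.00788) and DNAH7 (1.57 ± 0.35, adjusted p = 0.0165) and the doublecortin domain gene dcdc2b (2.16 ± 0.31, adjusted p = 0.000297) rose as well. In sema6A morphants foxj1b stood at 0.68, DNAH2 at 0.36 and DNAH7 at 0.57, none of them called, and dcdc2b rose by 1.25. None of the 4 was called in the direct test between the morphants. The call of DNAH7 needed control replicates 1 and 3 and plexinA2 replicates 1, 3 and 4.

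Both insulin-like growth factor 2 genes rose, igf2a by 1.82 ± 0.27 (adjusted p = 0.00034) and igf2b by 1.18 ± 0.30 (adjusted p = 0.0335, a call needing control replicates 1 and 3 and every plexinA2 array). Both were chosen after their values were seen. The 2 methionine adenosyltransferase genes mat2al and MAT2A moved in opposite directions, mat2al rising by 2.64 ± 0.33 (adjusted p = 6.66e-05) from 9.45 to 10.85 in controls to 12.29 to 13.12 in plexinA2 arrays, and MAT2A falling by 1.26 ± 0.33. Over the 13 measured genes of one-carbon and methionine metabolism these were the only calls, and the median was −0.11. In sema6A morphants mat2al rose by 2.89, and MAT2A stood at −0.50. Of 2 rows with the symbol GPD1, a glycerol phosphate dehydrogenase, 1 rose by 1.74 ± 0.28 (adjusted p = 0.000825) and the other stood at −0.79 (adjusted p = 0.206).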
